A study of Mus musculus with 6 samples.

Results

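The enzymes that make and break down prostaglandins and leukotrienes were examined in mouse lung tumors that grew with or without interstitial pneumonia (IP). The set held 10 genes of the 31130 in the deposited tables, matched by symbol: the cyclooxygenases Ptgs1 and Ptgs2, the terminal prostanoid synthases Ptges, Ptgds, Ptgis and Tbxas1, the leukotriene enzymes Alox5 and Alox5ap, and the breakdown enzymes Hpgd and Ptgr1. They were chosen to set synthesis against breakdown in the same comparison that is described here, with its results known. The levels and fold changes of these 10 genes are therefore given as a description, and no test is read for any of them. Of the 78 other genes of the pathway, listed by role, 37 passed a filter on low counts and were tested within a fit over all genes.

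All mice were female, 6 to 8 weeks old, with a wild-type genotype in the labels and of the C57BL/6 background used for Lewis lung carcinoma (LLC), a mouse lung tumor cell line. Both groups received LLC cells carrying enhanced green fluorescent protein in the left lung on day 14, and tumor tissue was collected on day 21. The IP + LC group (n = 3) had received bleomycin, which damages lung epithelium and brings on fibrosis, at 2.0 mg/kg in saline by oropharyngeal aspiration on day 0, and the LC group (n = 3) had received saline by the same route. Healthy lung and bleomycin-injured lung without tumor were not analysed here, so a difference between the groups cannot be split into an effect of bleomycin on the lung and one on the tumor. RNA was counted as unique molecular identifiers (UMIs), of which each marks 1 captured molecule at the 3′ end of a transcript. Levels are given as counts per 1000000 UMIs (CPM) after scaling of the libraries.

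Prostanoids start from arachidonic acid, which phospholipases release from membranes. Cyclooxygenases convert it to prostaglandin H2, and a terminal synthase then turns this into prostaglandin E2, prostaglandin D2, prostacyclin or thromboxane. In the second branch, 5-lipoxygenase and its activating protein convert arachidonic acid to leukotrienes. The lung is a main site where circulating prostaglandins are taken up and inactivated, and 15-hydroxyprostaglandin dehydrogenase (Hpgd) catalyses the first step of that breakdown.

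The letters in front of the genes at the centre of the comparison, the inducible cyclooxygenase Ptgs2, the inducible prostaglandin E synthase Ptges and Hpgd, are shown so that the genes can be placed next to their values. They are the 250 bases before the RefSeq start on GRCm38.p6, 5′ to 3′ in the direction of transcription, at chr1:150099781-150100030 (+ strand), chr2:30903298-30903547 (- strand) and chr8:56294302-56294551 (+ strand). Capitals mark letters matching an NF-kB site (GGGNNNNNCC) or a GC box (GGGCGG), searched on both strands.
Ptgs2: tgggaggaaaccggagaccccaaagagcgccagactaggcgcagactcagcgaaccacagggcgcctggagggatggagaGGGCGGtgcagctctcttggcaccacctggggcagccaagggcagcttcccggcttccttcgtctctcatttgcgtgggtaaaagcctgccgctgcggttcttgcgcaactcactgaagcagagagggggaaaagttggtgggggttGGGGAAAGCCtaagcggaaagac
Ptges: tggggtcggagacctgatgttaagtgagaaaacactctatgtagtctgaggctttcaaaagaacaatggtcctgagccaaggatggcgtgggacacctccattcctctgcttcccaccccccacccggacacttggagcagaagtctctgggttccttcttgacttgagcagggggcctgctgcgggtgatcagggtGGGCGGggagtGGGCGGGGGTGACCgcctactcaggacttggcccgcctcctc
Hpgd: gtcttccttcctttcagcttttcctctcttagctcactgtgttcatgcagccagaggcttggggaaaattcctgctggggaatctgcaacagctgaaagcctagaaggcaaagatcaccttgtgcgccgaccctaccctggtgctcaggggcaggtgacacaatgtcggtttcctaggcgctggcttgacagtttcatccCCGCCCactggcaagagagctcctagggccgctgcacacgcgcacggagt
In Ptgs2 the NF-kB letters lay 23 to 14 bases before the start and the GC box 170 to 165 bases before it. The Ptges window held GC boxes at 53 to 48 and 42 to 37 bases before the start, and NF-kB letters at 38 to 29 that overlap the second GC box. Only a GC box, on the opposite strand at 50 to 45 bases before the start, matched in Hpgd. The Ptges start of RefSeq lies inside the longer gene model of GENCODE M21 that is used for the positions below.

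Such matches are frequent. The NF-kB letters occurred in 45.8% and the GC box in 32.7% of 32851 promoters of the same length, and no motif is a measured binding site. Promoters were given for 8 of the 10 genes, and not for Ptgis and Alox5ap. Letters outside these windows were not searched, so a missing match holds for the window alone. As for Ptges, the RefSeq starts of Tbxas1 and Ptgds lie inside their GENCODE gene models. The hypoxia response element core (ACGTG, in 16.6% of promoters) and the cAMP response element (TGACGTCA, 1.55%, or its TGACG part, 17.8%) did not match in these 8 windows. A TATA box (TATAAA, 12.4%) matched in Tbxas1 alone, and AP-1 letters (TGANTCA, 6.75%) in Ptgds and Tbxas1. C/EBP letters (TTNNGNAA, 36.8%) matched in Ptgs2, Ptges, Ptgds, Hpgd and Ptgr1, and 1 of the matches in Ptgs2, which starts 25 bases before the start, overlaps its NF-kB letters.

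The libraries held 592733, 1379759 and 1356381 UMIs in LC tumors 1 to 3 and between 1336919 and 1631066 UMIs in the IP + LC tumors. The first LC tumor, the shallowest, stood apart: across genes its Pearson r with the other LC tumors was 0.840 and 0.799, against 0.962 between those and 0.968 to 0.973 within the IP + LC group. Its r with the 3 IP + LC tumors was 0.796 to 0.822, so it lay about as near to that group as to its own. A count of 3 UMIs, taken as the floor, was worth 5.17 CPM in that library and 1.75 to 2.54 CPM in the others, and these figures cover counting error only. Of 11240 genes that passed the filter on low counts, 4088 (36.4%) differed at an adjusted p below 0.1 (quasi-likelihood test of edgeR, Benjamini-Hochberg), of which 1885 (16.8%) were higher and 2203 (19.6%) lower in the IP + LC group. With scaling by library size alone the share of higher genes among those that passed was 58.3% instead of 46.1%, and the median log2 fold change of all genes was 0.18 instead of 0.02.

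Of the 10 enzymes, 9 passed the filter and Ptgds did not. In the fit over all genes the limit took in 2 of the 9 on the higher side (Ptgs2 and Ptges) and 3 on the lower side (Hpgd, Ptgis and Alox5), beside 36.4% of all tested genes in either direction. The groups did not overlap for 2 genes that were higher and 4 that were lower (the 3 above and Ptgr1), beside 21.6% and 21.5% of all tested genes. The median log2 fold change of the 9 was -0.28. As the enzymes were chosen on this contrast, these counts are no test of them and nothing is read from them. In bulk tumor tissue, fewer cells of a type and less RNA per cell cannot be told apart.

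**Figure D1:**
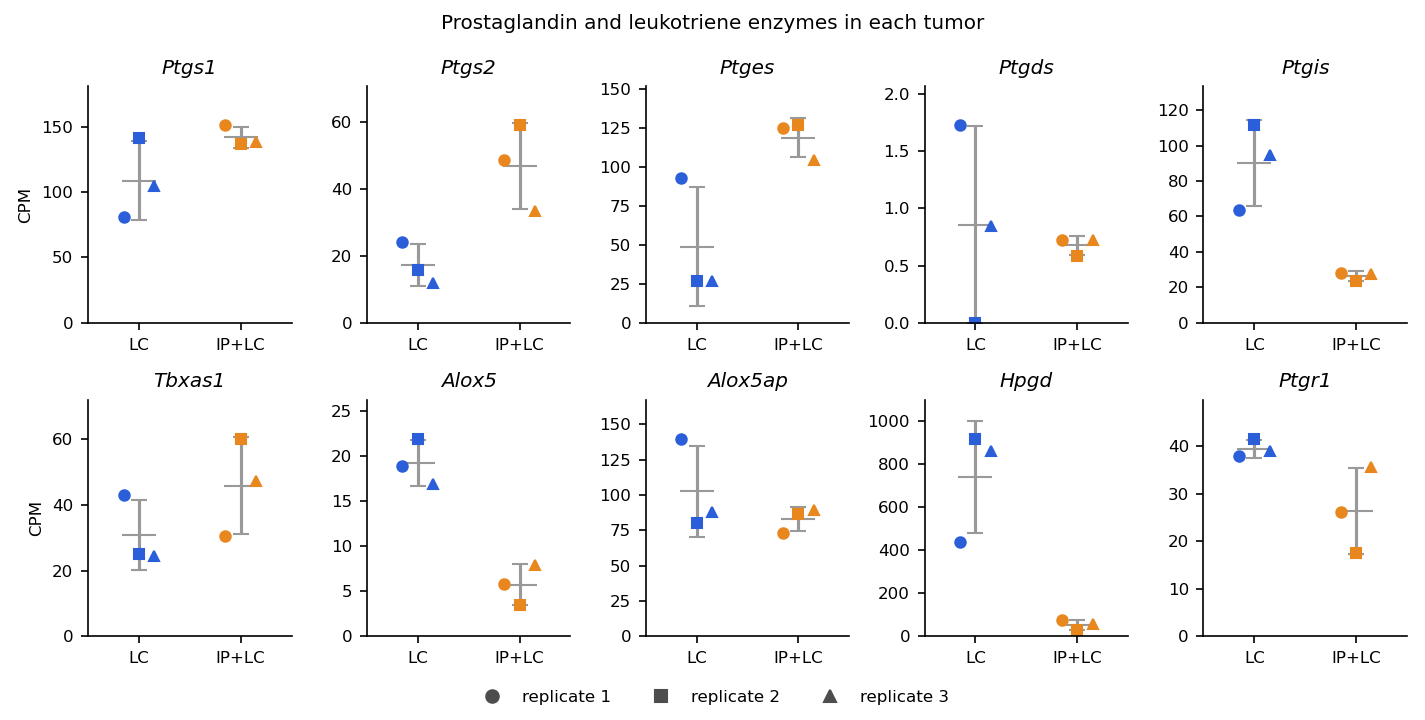
Level in CPM (vertical axis) of each of the 10 enzymes in the 3 LC and 3 IP + LC tumors, 1 panel per gene with its own axis from 0; points are tumors, and lines and bars are the group mean and SD. Hpgd spans 440.8 to 918.2 CPM in the LC group and 28.02 to 76.9 CPM in the IP + LC group, whereas the points of Ptgs1 and Alox5ap overlap.

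Hpgd (ENSMUSG00000031613, chr8:56294585-56321043, + strand), which oxidises prostaglandin E2 and related prostaglandins at carbon position 15 and so inactivates them, showed the largest difference of the 10. Its level was 440.8, 918.2 and 861.8 CPM in LC tumors 1 to 3 and 76.9, 28.02 and 57.4 CPM in IP + LC tumors 1 to 3. Every IP + LC tumor lay far below the lowest LC tumor, which was the first. The group means were 740.3 ± 260.9 and 54.1 ± 24.6 CPM (SD, n = 3), a level 13.7-fold higher in the LC group. The log2 fold change of IP + LC over LC was -3.78 (SE 0.43), the 9th lowest of 11240 tested genes. The counts behind it were 256, 1172 and 1017 UMIs in the LC group and 106, 48 and 79 UMIs in the IP + LC group, well above the floor in each tumor. Without the first LC tumor the log2 fold change was -4.05.

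Ptgr1 (ENSMUSG00000028378, chr4:58965439-58987119, - strand) encodes prostaglandin reductase 1, which acts on the keto products of Hpgd and also inactivates leukotriene B4. Its levels were 37.9, 41.5 and 39.0 CPM in the LC tumors, a narrow range, and 26.1, 17.5 and 35.6 CPM in the IP + LC tumors. The groups did not overlap, but the third IP + LC tumor lay close to the LC group. The log2 fold change was -0.60 (SE 0.28). With each tumor left out in turn it ranged from -0.84 without the third IP + LC tumor to -0.34 without the second, the lowest of that group. Both breakdown enzymes were thus counted at lower means in the IP + LC group, by unequal amounts.

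Ptgs2 (ENSMUSG00000032487, chr1:150100031-150108227, + strand) is the cyclooxygenase that inflammatory signals induce. It was counted at 14, 20 and 14 UMIs in the LC tumors and at 67, 101 and 46 UMIs in the IP + LC tumors, or 24.1, 15.7 and 11.9 CPM against 48.6, 59.0 and 33.4 CPM. Each IP + LC tumor was above each LC tumor, and the lowest IP + LC level was the nearest to the first LC tumor. The means were 17.2 ± 6.27 and 47.0 ± 12.9 CPM, 2.73-fold higher in the IP + LC group, with a log2 fold change of 1.54 (SE 0.32). That value was 442nd from the highest among the 11240 genes, and it ranged from 1.31 without the third LC tumor to 1.78 without the first.

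Ptgs1 (ENSMUSG00000047250, chr2:36230426-36252272, + strand) is the cyclooxygenase that most tissues express at rest. Its levels were 80.9, 141.0 and 104.2 CPM in the LC tumors and 150.8, 136.6 and 138.0 CPM in the IP + LC tumors. The second LC tumor lay inside the IP + LC range, so the groups overlapped. The log2 fold change was 0.37 (SE 0.23), and it ranged from 0.21 without the first LC tumor to 0.60 without the second. In the same tumors, the UMIs of Ptgs2 per UMI of Ptgs1 were 0.298, 0.111 and 0.114 in LC tumors and 0.322, 0.432 and 0.242 in IP + LC tumors, and the first LC tumor fell inside the IP + LC range.

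Ptges (ENSMUSG00000050737, chr2:30889471-30929863, - strand), the microsomal synthase that makes prostaglandin E2 from the cyclooxygenase product, was at 93.0, 26.6 and 27.1 CPM in the LC tumors and at 125.4, 126.7 and 104.6 CPM in the IP + LC tumors. The first LC tumor lay near the IP + LC group and the other LC tumors lay far below it. The means were 48.9 ± 38.2 and 118.9 ± 12.4 CPM, 2.43-fold higher in the IP + LC group, with a log2 fold change of 1.39 (SE 0.44). Without the first LC tumor the log2 fold change was 2.15. It was 1.06 without the second LC tumor and 1.08 without the third, and 1.34 to 1.47 when an IP + LC tumor was left out.

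Ptgis (ENSMUSG00000017969, chr2:167191805-167240604, - strand) makes prostacyclin, a dilator of vessels that is formed mainly in endothelium and smooth muscle. It was at 63.7, 111.3 and 94.9 CPM in the LC tumors and at 28.3, 23.4 and 27.6 CPM in the IP + LC tumors. The IP + LC tumors were close to one another and all below the lowest LC tumor, again the first. The level was 3.41-fold higher in the LC group, and the log2 fold change of IP + LC over LC was -1.79 (SE 0.25).

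Tbxas1 (ENSMUSG00000029925, chr6:38875404-39084585, + strand), the thromboxane synthase of platelets and macrophages, was at 43.1, 25.1 and 24.6 CPM in the LC tumors and at 30.5, 60.1 and 47.2 CPM in the IP + LC tumors. The first LC tumor exceeded the first IP + LC tumor, so the groups overlapped. The log2 fold change was 0.65 (SE 0.32), and it ranged from 0.41 without the second IP + LC tumor to 0.91 without the first LC tumor. Ptgds (ENSMUSG00000015090, chr2:25466709-25470046, - strand), a synthase of prostaglandin D2, was counted at 1, 0 and 1 UMI in the LC tumors and at 1 UMI in each IP + LC tumor. These counts were at or below the floor in both groups, and a difference in Ptgds was not detectable at this depth.

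Among the terminal synthases, prostaglandin E synthase thus had the higher mean and prostacyclin synthase the lower mean in the IP + LC group. Within single tumors, the UMIs of Ptges per UMI of Ptgis were 1.46, 0.239 and 0.286 in LC tumors and 4.44, 5.43 and 3.79 in IP + LC tumors. The groups did not overlap, and the first LC tumor was the nearest to the IP + LC group. The difference of mean log2 ratios, with 1 UMI added to each count, was 3.23, and 4.05 without the first LC tumor. For Tbxas1 per UMI of Ptgis the ratios were 0.676, 0.225 and 0.259 in LC tumors and 1.08, 2.58 and 1.71 in IP + LC tumors, a log2 difference of 2.26, and of 2.75 without the first LC tumor. Capture at the 3′ end may differ between genes, so such ratios compare tumors and not the amounts of the enzymes.

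Alox5 (ENSMUSG00000025701, chr6:116410077-116461178, - strand) encodes 5-lipoxygenase, which carries out the first steps of leukotriene synthesis in neutrophils, macrophages and mast cells. It was counted at 11, 28 and 20 UMIs in the LC tumors and at 8, 6 and 11 UMIs in the IP + LC tumors, or 18.9, 21.9 and 17.0 CPM against 5.80, 3.50 and 7.99 CPM. The LC tumors were near one another, and the groups did not overlap. The level was 3.35-fold higher in the LC group, and the log2 fold change of IP + LC over LC was -1.76 (SE 0.36).

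Alox5ap (ENSMUSG00000060063, chr5:149264767-149288153, + strand), the membrane protein that presents arachidonic acid to 5-lipoxygenase, was at 139.5, 79.9 and 88.1 CPM in the LC tumors and at 73.2, 86.4 and 89.3 CPM in the IP + LC tumors. The groups overlapped, and the highest value was that of the first LC tumor. The log2 fold change was -0.28 (SE 0.25), and it ranged from -0.0042 without the first LC tumor to -0.44 without the second. The UMIs of Alox5ap per UMI of Alox5 were 7.36, 3.64 and 5.20 in LC tumors and 12.6, 24.7 and 11.2 in IP + LC tumors, so the activating protein and the lipoxygenase were counted in different proportions in the groups, with a log2 difference of 1.45.

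Synthesis was then set against breakdown inside each library, where library scaling plays no part. The LC tumors held 4.20, 5.86 and 7.42 UMIs of Hpgd for each UMI of Ptgs1 and Ptgs2 together. In the IP + LC tumors the order of the counts was the opposite, with 2.59, 6.98 and 2.99 cyclooxygenase UMIs for each UMI of Hpgd. The mean log2 ratio of cyclooxygenases to Hpgd was -2.49 ± 0.42 in LC tumors and 1.90 ± 0.76 in IP + LC tumors (SD, n = 3), a difference of 4.40. The same difference was 4.21 for Ptgs1 alone and 5.21 for Ptgs2 alone, and the latter was 5.82 without the first LC tumor and 4.62 without the second IP + LC tumor. The UMIs of Ptges per UMI of Hpgd were 0.211, 0.0290 and 0.0315 in the LC tumors and 1.63, 4.52 and 1.82 in the IP + LC tumors, a log2 difference of 5.32. The first LC tumor lay far from the other LC tumors in this ratio, and without it the difference was 6.24.

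**Figure D2:**
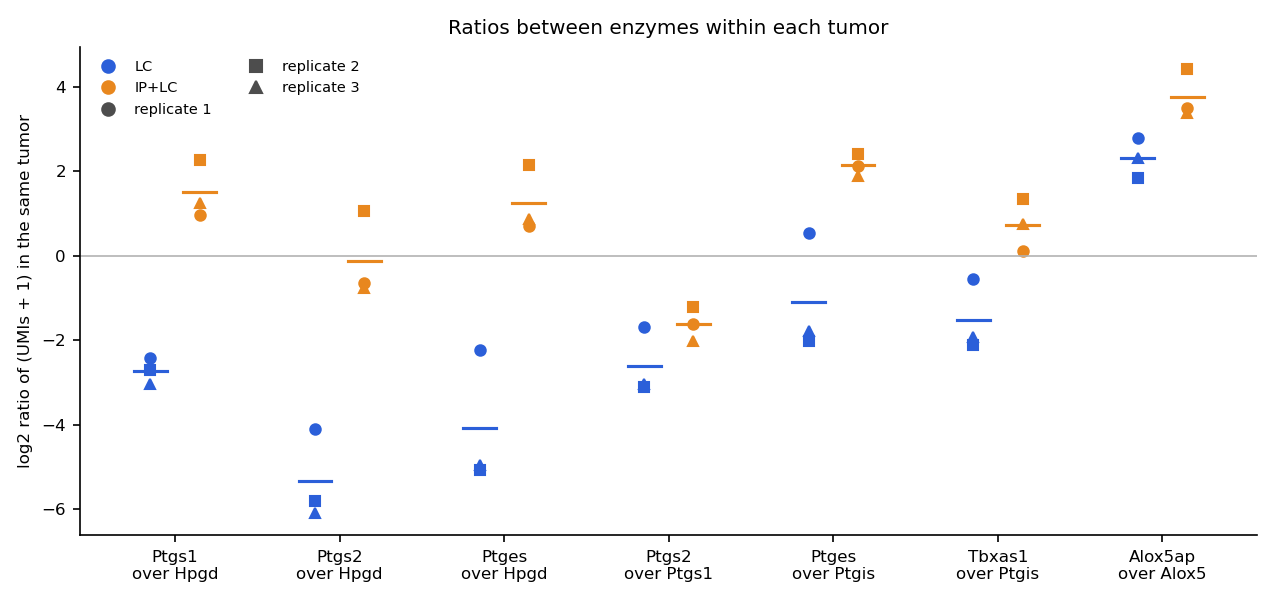
Log2 ratio of UMIs between pairs of enzymes within the same tumor, with 1 UMI added to each count (vertical axis). Points are the 3 LC and 3 IP + LC tumors, and short lines are the group means. The mean ratio of Ptgs1 to Hpgd lies at -2.72 in LC tumors and at 1.49 in IP + LC tumors.

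The denominator carried most of that difference. Hpgd had a log2 fold change of -3.78, whereas that of Ptgs1 was 0.37 and that of Ptgs2, the cyclooxygenase with fewer UMIs in every tumor, was 1.54. Across the 6 tumors the log2 levels of Hpgd followed those of Ptgis (Pearson r = 0.987) and Alox5 (0.960), and ran opposite to those of Ptgs2 (-0.944), which followed Ptges (0.919). The 6 points fall into the 2 groups and share the library scaling, so these coefficients describe the group difference and carry no p. Ptgs1 and Alox5ap, whose groups overlapped, ran opposite to each other (-0.906). The first LC tumor had the lowest Ptgs1 (80.9 CPM) and the highest Alox5ap (139.5 CPM), and r without that tumor was not computed.

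Other tested genes were then ranked by the likeness of their pattern to that of Hpgd over the 6 tumors, on log2(CPM + 4). The 5 nearest of 11239 were Cytl1 (r = 0.99962), Acot1 (0.99904), Higd1b (0.99829), Retn (0.99807) and Adgrl4 (0.99799). Adgrl4 is an adhesion receptor of endothelium, Higd1b is found in pericytes of the lung, and Acot1 is an acyl-CoA thioesterase, whose transcript shares 83.5% of its length with Acot2. In all, 100 genes had an r above 0.99 with Hpgd, so the nearest 5 were not set apart. For Ptgs2 the nearest were Sgpl1 (0.99607), Eif4g1 (0.99594), Trmt10a (0.99530), Nol6 (0.99419) and Upp1 (0.99339), and 12 genes had an r above 0.99. Eif4g1 is a scaffold of translation initiation, Nol6 acts in ribosome formation, Upp1 is a uridine phosphorylase and Sgpl1 degrades sphingosine-1-phosphate. With 6 tumors in 2 groups, many genes reach such values.

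The other genes of the pathway were not chosen for how they moved in the comparison, although the list was written with earlier results known. Of 78 listed, 69 were found in the tables and 37 passed the filter on low counts. By edgeR's quasi-likelihood test, adjusted over all 11240 genes, 6 were higher and 11 lower in the IP + LC group and 20 did not pass, beside 16.8% and 19.6% of all tested genes. Their median log2 fold change was -0.06, beside 0.02 for all tested genes.

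**Figure D3:**
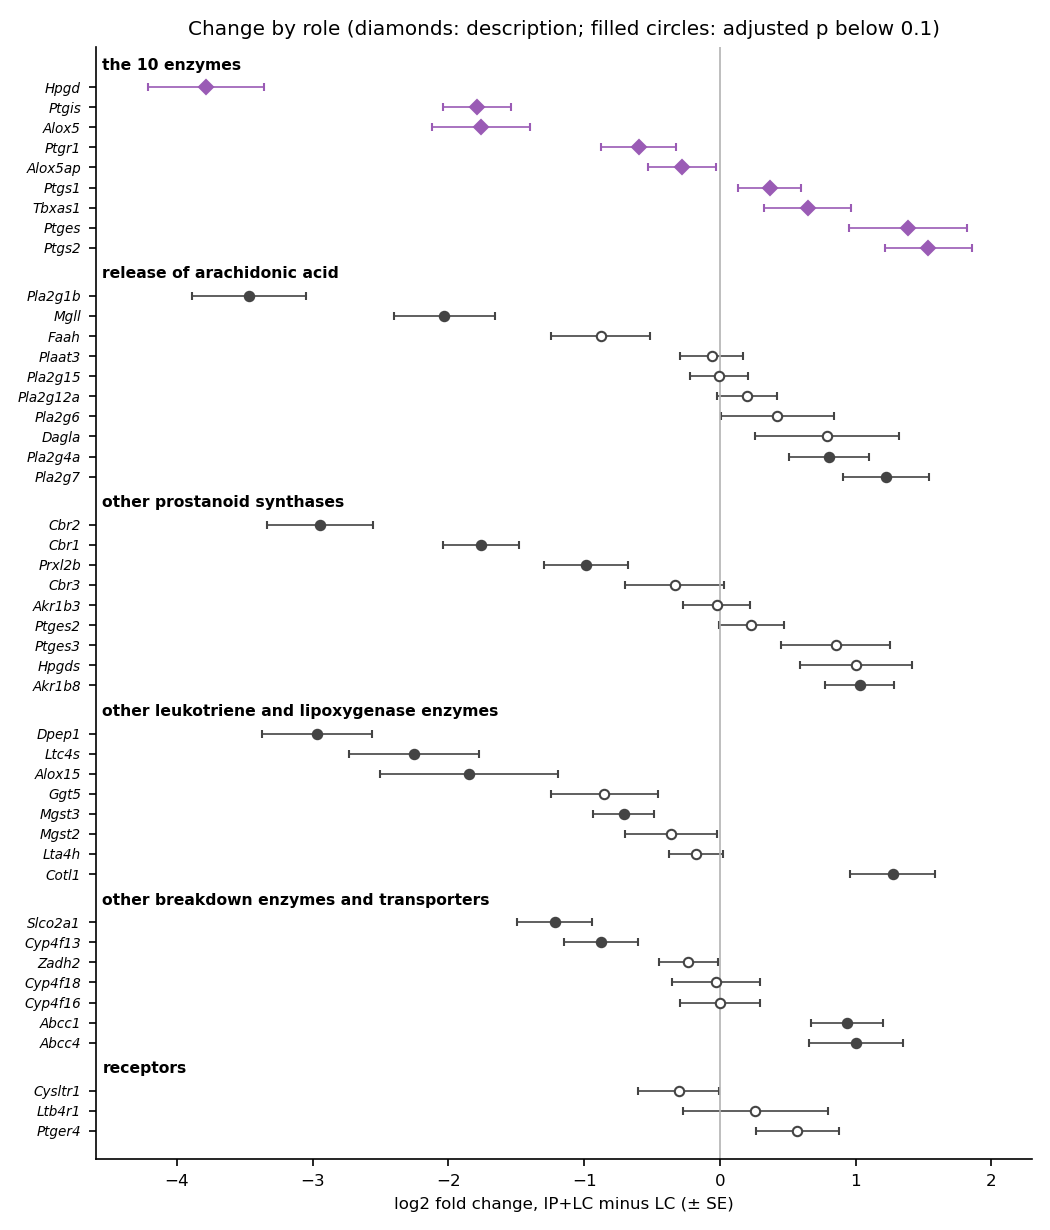
Log2 fold change of IP + LC over LC (horizontal axis) with its standard error for the 9 enzymes of the set that passed the filter on low counts and for the tested genes of each other role of the pathway; diamonds are the enzymes of the set, given as a description, and circles are the other genes, filled where the adjusted p was below 0.1. Hpgd lies at -3.78, and of the other genes 6 lie to the right and 11 to the left among those that passed.

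Of 24 genes that can release arachidonic acid or act on related lipids, 10 were tested, 2 rose and 2 fell. Pla2g7, which hydrolyses platelet-activating factor, rose from 45.9 ± 22.1 to 102.5 ± 15.1 CPM (log2 fold change 1.22, SE 0.32, edgeR adjusted p = 0.0219). Without the second LC tumor or the second IP + LC tumor its adjusted p by the same test was 0.101 and 0.104, and without the first LC tumor its log2 fold change was 1.62. Pla2g4a, the cytosolic phospholipase A2 that prefers arachidonic acid, had an adjusted p of 0.0724 with a log2 fold change of 0.81 (SE 0.30), and its groups overlapped. That call was lost without the second or the third LC tumor (edgeR adjusted p = 0.268 and 0.209) and without the first or the second IP + LC tumor (0.175 and 0.241), and the log2 fold change was 1.15 without the first LC tumor. Mgll, the monoacylglycerol lipase, which frees arachidonic acid from 2-arachidonoylglycerol, fell from 100.7 ± 49.3 to 25.3 ± 2.80 CPM (log2 fold change -2.03, and -2.34 without the first LC tumor, edgeR adjusted p = 0.00531 with it). Pla2g1b, a secreted phospholipase, was counted at 20, 34 and 30 UMIs in the LC tumors and at 5, 5 and 1 UMIs in the IP + LC tumors (log2 fold change -3.47, edgeR adjusted p = 0.0012). The phospholipase Plaat3, the most abundant of those that did not pass, had a log2 fold change of -0.06 (SE 0.23).

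Among 9 tested genes listed as other prostanoid synthases and reductases, 1 rose and 3 fell. Cbr2, a carbonyl reductase abundant in lung, was at 4927 ± 888.6 CPM in the LC group and at 639.5 ± 296.9 CPM in the IP + LC group (log2 fold change -2.95, SE 0.39, edgeR adjusted p = 0.00149), but 43.7% of its transcript is shared with Gm11771. Its relative Cbr1, which can reduce prostaglandin E2 to prostaglandin F2α, fell from 66.0 ± 2.10 to 19.7 ± 8.18 CPM (log2 fold change -1.76, edgeR adjusted p = 0.00314). Prxl2b, a prostamide and prostaglandin F synthase, fell with a log2 fold change of -0.99 (SE 0.31, edgeR adjusted p = 0.0435). The aldo-keto reductase Akr1b8 rose from 31.8 ± 9.70 to 62.9 ± 5.23 CPM (log2 fold change 1.03, edgeR adjusted p = 0.0172), with 29.4% of its transcript shared with Akr1b10. Ptges3, a cochaperone that also has prostaglandin E synthase activity, had means of 168.6 ± 94.2 and 309.4 ± 13.7 CPM and did not pass (log2 fold change 0.85, SE 0.40, edgeR adjusted p = 0.149), and 48.3% of its transcript has near copies elsewhere. The call of Prxl2b was lost without the second or the third LC tumor (edgeR adjusted p = 0.105 and 0.140) and without the first or the second IP + LC tumor (0.149 and 0.192).

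Of the other leukotriene and lipoxygenase genes 8 were tested, and 4 fell and 1 rose. Ltc4s, the leukotriene C4 synthase, fell from 18.1 ± 4.11 to 4.02 ± 2.70 CPM (log2 fold change -2.25, SE 0.48, edgeR adjusted p = 0.00979). Dpep1, a dipeptidase that converts leukotriene D4 to leukotriene E4, fell from 127.5 ± 54.1 to 16.6 ± 6.97 CPM (log2 fold change -2.97, SE 0.40, edgeR adjusted p = 0.00161), and the log2 fold change was -3.26 without the first LC tumor. Mgst3, a microsomal glutathione transferase with leukotriene C4 synthase activity, fell with a log2 fold change of -0.71 (SE 0.22, edgeR adjusted p = 0.0435), which did not pass without the second LC tumor or the first or the second IP + LC tumor (edgeR adjusted p = 0.1501, 0.174 and 0.206). Alox15, a lipoxygenase of macrophages and eosinophils, had overlapping groups and a log2 fold change of -1.85 (SE 0.66, edgeR adjusted p = 0.0657). It did not pass without the second LC tumor or the second or the third IP + LC tumor (edgeR adjusted p = 0.329, 0.197 and 0.180), and the log2 fold change was -1.24 without the second LC tumor and -2.46 without the first IP + LC tumor. Cotl1, an actin-binding protein that also binds 5-lipoxygenase, rose from 117.4 ± 52.1 to 278.7 ± 54.3 CPM (log2 fold change 1.27, SE 0.32, edgeR adjusted p = 0.0181), with a log2 fold change of 1.68 without the first LC tumor. Lta4h, the leukotriene A4 hydrolase that makes leukotriene B4, had a log2 fold change of -0.18 (SE 0.20) and did not pass.

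Of 7 tested breakdown enzymes and transporters 2 rose and 2 fell. Slco2a1, the carrier that brings prostaglandins into the cell before Hpgd acts on them, fell from 168.2 ± 36.4 to 72.9 ± 23.1 CPM (log2 fold change -1.22, SE 0.28, edgeR adjusted p = 0.0131). The exporters of leukotriene C4 and of prostaglandin E2, Abcc1 and Abcc4, rose with log2 fold changes of 0.94 (SE 0.27, edgeR adjusted p = 0.03) and 1.00 (SE 0.35, edgeR adjusted p = 0.0596). Without the first IP + LC tumor neither passed (edgeR adjusted p = 0.110 and 0.115), and Abcc4 did not pass without the second LC tumor or the third IP + LC tumor either (0.222 and 0.181). Cyp4f13, of the family of ω-hydroxylases, fell with a log2 fold change of -0.88 (SE 0.27, edgeR adjusted p = 0.0409). That call was lost without the second LC tumor (edgeR adjusted p = 0.120) and without any 1 of the IP + LC tumors (0.140, 0.118 and 0.106). Its relative Cyp4f18 did not pass (log2 fold change -0.03, SE 0.32).

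The receptors were counted at low levels. Of 14 listed, 3 passed the filter and none of these passed the test by edgeR: Ptger4, a receptor of prostaglandin E2 (log2 fold change 0.57, SE 0.31, adjusted p = 0.199), Ltb4r1, a receptor of leukotriene B4 (0.26, SE 0.53, adjusted p = 0.748), and Cysltr1, a receptor of cysteinyl leukotrienes (-0.30, SE 0.30, adjusted p = 0.484). The prostaglandin F receptor Ptgfr, below the filter, was counted at 4, 29 and 24 UMIs in the LC tumors and at 4, 3 and 6 UMIs in the IP + LC tumors. For the thromboxane receptor Tbxa2r the counts were 5, 11 and 9 UMIs in the LC tumors and 5, 0 and 3 UMIs in the IP + LC tumors. The 4 UMIs of Ptgfr were worth 6.89 CPM in the first LC tumor and 2.9 CPM in the first IP + LC tumor. Ptgfr and Tbxa2r were named after their values were seen, and each other receptor found below the filter had overlapping groups. Among those, Ptger2, Ptgir and Ptger3 had means of 5.53, 6.84 and 3.83 CPM in the LC group. In the IP + LC group the means were 5.77, 5.23 and 2.47 CPM. Changes in the receptors that did not pass the filter were not tested.

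Markers of several cell types moved with these enzymes. The labels name the samples as tumor tissue and their cell type as lung cancer cells, yet the summed levels of 8 airway markers, led by Scgb1a1, were 49480 to 58430 CPM in the LC group and 3396 to 7277 CPM in the IP + LC group, so transcripts of normal lung were present in both groups. Markers of type 2 alveolar cells spanned 35680 to 44450 CPM in the LC group and 6348 to 11600 CPM in the IP + LC group. The type 1 alveolar list spanned 2053 to 4352 CPM and 701.6 to 1009 CPM. All 8 airway markers, 7 of 8 type 2 and 6 of 6 type 1 markers were lower by the same test. On the log2 scale the ratio of the summed means was -3.23 for airway, -2.14 for type 2 and -1.86 for type 1 markers, beside the log2 fold change of -3.78 of Hpgd. The part of these cells in the Hpgd result was not tested.

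Endothelial markers, which bear on Ptgis and Hpgd, spanned 1896 to 3373 CPM in the LC group and 527.1 to 711.6 CPM in the IP + LC group, and 8 of 8 were lower. Those of smooth muscle spanned 766.3 to 1202 CPM and 238.1 to 323.1 CPM, with 6 of 6 lower. The log2 ratios of the summed means were -2.12 and -1.77, beside -1.79 for Ptgis. Fibroblast markers, at 1505 to 1938 CPM and 1629 to 1748 CPM, were higher for 2 and lower for 3 of 6. How much of the Ptgis value went with the vessels was not tested.

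Leukocyte lists moved in different directions. Markers of macrophages and monocytes were at 850.8 to 2481 CPM in the LC group and at 2534 to 3236 CPM in the IP + LC group, with 5 of 9 higher, and the highest LC value was that of the first LC tumor, in which Ptgs2, Ptges, Tbxas1 and Alox5ap were also the highest of the LC group. Alveolar macrophage markers were at 1620 to 2036 CPM and 239.9 to 468.4 CPM, with 7 of 7 lower, and those of neutrophils at 797.3 to 1924 CPM and 146.5 to 318.0 CPM, with 3 of 5 tested lower and Ly6g at 0 in some libraries. Mast cell markers spanned 67.2 to 90.7 CPM and 17.5 to 48.6 CPM, with 1 of 2 tested lower and Mcpt4, Cma1, Tpsab1 and Fcer1a at 0 in some libraries. Platelet markers spanned 130.8 to 222.1 CPM and 54.3 to 91.4 CPM, with 1 of 2 tested lower and Gp5 at 0 in some libraries. For Alox5, with a log2 fold change of -1.76, the log2 ratios of the summed means were -2.41 for alveolar macrophages, -2.36 for neutrophils and -1.37 for mast cells. The members of these lists did not move alike. The neutrophil sum was mostly S100a8, S100a9 and Retnlg, with log2 fold changes of -2.39, -2.66 and -2.70, whereas Csf3r and Cxcr2 had values of -0.23 and -0.29 and did not pass (edgeR adjusted p = 0.653 and 0.663). The mast cell sum was mostly Kit, which is not particular to mast cells and fell from 53.0 to 17.7 CPM, and the mast cell protease Cma1 did not pass (log2 fold change -1.02, edgeR adjusted p = 0.334). The part of these lists in the values of Alox5, Ptgs2, Ptges, Tbxas1 and Alox5ap was not tested.

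Of the remaining lists, T cell markers were at 160.1 to 228.0 CPM in the LC group and 137.8 to 234.5 CPM in the IP + LC group, with 1 of 6 lower and Cd3e at 0 in some libraries. B cell markers were at 196.3 to 282.8 CPM and 34.1 to 137.2 CPM, and mesothelial markers at 263.5 to 416.8 CPM and 99.8 to 150.3 CPM, with 4 of 4 tested lower in both lists. Proliferation genes were at 113.6 to 482.2 CPM in the LC group, the highest being the first LC tumor, and at 978.8 to 1153 CPM in the IP + LC group, with 5 of 6 higher.

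**Figure D4:**
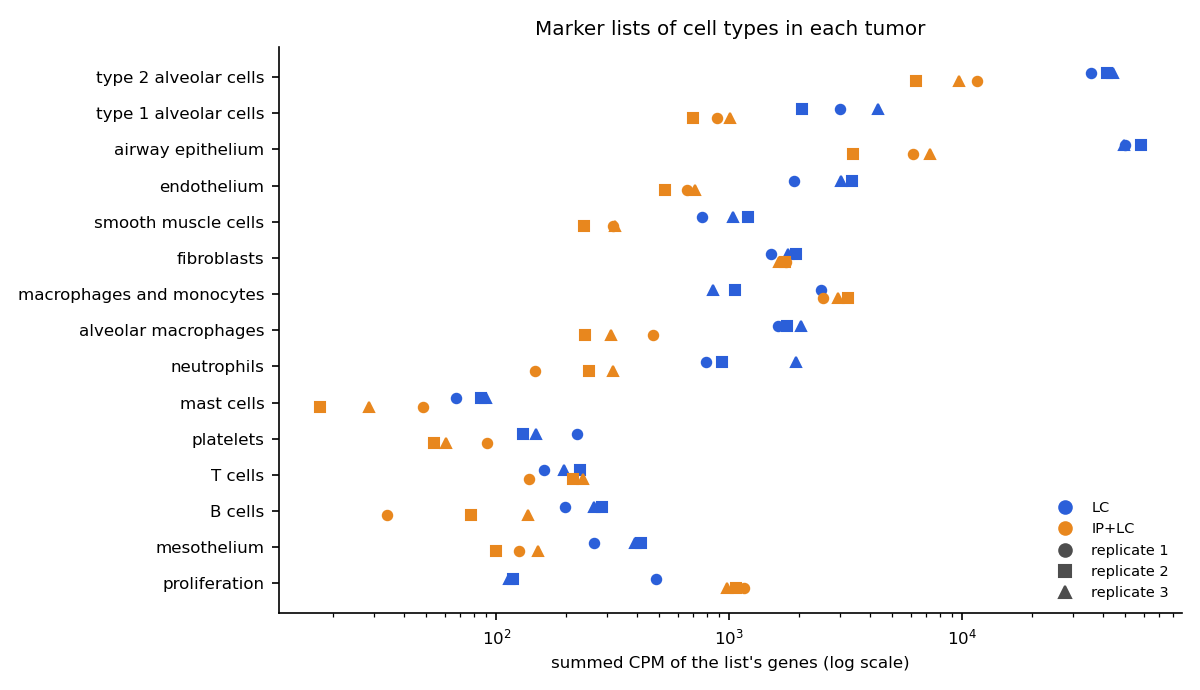
Summed level of each marker list in CPM (log axis) in the 3 LC and 3 IP + LC tumors; each point is a tumor. The airway list lies at 49480 to 58430 CPM in the LC group and at 3396 to 7277 CPM in the IP + LC group, whereas the macrophage and proliferation lists lie higher in the IP + LC group.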

How the data were processed

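RNA of 6 tumors was sequenced by bulk RNA barcoding with oligo-dT primers. The authors deposited 1 table per tumor of UMI counts per gene, without normalization, made with UMI-tools 1.1.1, Trim Galore 0.6.7, HISAT2 2.2.1 against GRCm38 and featureCounts 2.0.1. The annotation release and the use of strand are not given in the sources used here. Genes of opposite strands may therefore share counts: a gene on the other strand overlaps 13.3% of the exonic sequence of Alox5ap, 6.08% of Ptgis, 3.81% of Ptgs1, 1.58% of Tbxas1, 26.4% of Ltc4s, 16.5% of Ptger4, 11% of Pla2g7, 9.76% of Cyp4f18, 5.73% of Trmt10a, 3.29% of Mgll, 2.43% of Prxl2b and 0.768% of Slco2a1. PCR duplicates were removed by UMI, so the counts are of molecules.

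Differences were fitted to these counts by edgeR 4.0.16 in R 4.3.3, and p-values were adjusted by Benjamini-Hochberg over all tested genes with a limit of 0.1 (filterByExpr with a minimum count of 10 and a total of 15, TMM factors of 0.905 to 1.07, quasi-likelihood test, no block). The study states the limit of 0.1 and no test in its text, and DESeq2 is named among the upstream tools without a version. Fold values are ratios of mean CPM. Ratios within a tumor had 1 UMI added to each count. Alternatives were other scalings and filters, DESeq2 1.42.0, voom of limma 3.58.1, thinning to 592733 UMIs, a replicate block, a limit of 0.05 and leaving out each tumor, which was added for the ratios other than that of both cyclooxygenases to Hpgd after the data were seen. The script was tested on simulated data with far fewer changed genes than were called here and without an outlying library, so that test does not cover such data. Positions and exonic overlaps came from GENCODE M21 and near copies from blastn 2.17.0+ (at least 81 bases at 95% identity, as a share of the transcript). Promoters came from RefSeq on GRCm38.p6.

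The 10 enzymes, the lists and the tests were chosen with earlier results of these data known. All 10 enzymes are named. In each role of the pathway every gene that passed is named, with the most abundant tested gene that did not. Ptger2, Ptger3, Ptger4, Ptgir, Ltb4r1, Ptgfr and Tbxa2r were added after their values were seen. For likeness, the 5 genes with the highest Pearson r are named. Of the 78 pathway genes, 9 were not analysed here and 2 were matched by Ensembl identifier. The labels do not name the animals, so p-values measure the spread between these samples. Counts of all sample pairs differed by more than sampling noise, with chi-square per degree of freedom of 2.45 to 34.9.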

Additional observations from a re-analysis of the deposited data

How the results depend on the processing

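The 9 enzymes that passed the filter had the same direction under each alternative that could fit them. The counts of enzymes within the limit are a description and no test, since the enzymes were chosen on this contrast. With Tbxas1 3 enzymes counted as higher with library size alone and with no filter on low counts. With at least 10 UMIs in every library and after thinning, which leave Alox5 out of the fit, 2 counted as lower. The enzymes counted as higher ranged from 1 to 3 and those counted as lower from 3 to 4 when each tumor was left out, with 1 higher without LC tumor 2 or 3 or IP + LC tumor 1 or 2, and 3 higher and 4 lower without LC tumor 1. In the same runs the other pathway genes that rose ranged from 3 to 8 and those that fell from 7 to 15. The lower limits were reached without LC tumor 2 (3 and 7) and, for those that rose, also without IP + LC tumor 1 (3), and the upper without LC tumor 1. Those that fell numbered 7 both with at least 10 UMIs in every library and after thinning to the smallest library, where fewer genes or molecules enter the test. Over all genes, 2352 passed after thinning and 2265 to 6691 when a tumor was left out, with 6691 without LC tumor 1, 2585 without LC tumor 2, 2660 without IP + LC tumor 1 and 2265 without IP + LC tumor 2. The log2 difference of the cyclooxygenase to Hpgd ratio ranged from 3.96 to 4.67 when a tumor was left out and was 5.21 with Ptgs2 alone.

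The deviations of tumors of the same replicate number had r of 0.026, -0.12 and 0.11, within the range of all pairs (-0.14 to 0.13). With 3 tumors per group, centred on their mean, these values cannot decide whether the numbers pair the tumors. With the replicate number as a block 3410 of all genes passed, and the counts in the set (2 higher, 3 lower) and among the other pathway genes (6 higher, 11 lower) were the same. DESeq2 called 3261 genes and voom 4355, and both gave 2 higher and 3 lower enzymes. Calls of some pathway genes were lost elsewhere: Pla2g4a with upper quartile factors (adjusted p = 0.101), DESeq2 (0.117) and thinning (0.187), Prxl2b with DESeq2 (0.123), Prxl2b, Mgst3 and Cyp4f13 with no filter (0.172, 0.154 and 0.132), Cyp4f13 with thinning (0.190), Alox15 with voom (0.111) and Abcc4 with DESeq2 (0.106). Ptgds and 32 of the 69 pathway genes found did not pass the filter on low counts and were not tested. For these, low depth and absent expression cannot be told apart.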
